A study of Mus musculus with 113 samples.

Results

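The comparison described here sets 8 single mouse embryonic stem cells (mESCs) collected 9 h into neural induction against 8 single mESCs collected at 0 h. The hour in each cell's label chose the members, which are 16 of the 64 single cells and of the 113 samples of the study. The study followed neural differentiation of mESCs by RNA-seq of single cells at 8 time points and of whole cell populations. All 16 cells are of the R1 line, an established mouse ES cell line, which had been grown on feeders and then passaged once without them; the labels name no altered allele and no drug. The 0 h cells are the starting ES cells. The 9 h cells had spent 9 h in SFEB, a suspension culture without serum in which the cells gather into aggregates resembling embryoid bodies and for which ES cells were dissociated and seeded into petri dishes in GKSR medium. Each cell was picked by hand into lysis buffer, its cDNA was tailed with poly(A) and amplified by 20 and then 9 cycles of PCR, and the library was made with Nextera XT.

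Nothing in the labels ties the 8 cells of a time point to more than 1 culture, so each time point is 1 sample. The differences therefore have no replicate check, no p-value is given, and the time of collection, the culture dish and the handling of the cells cannot be told apart. Levels are the deposited values, log10(RPKM + 1), where RPKM is the read density of a gene scaled to its length and to the reads of the library, and a difference is the mean of the 8 cells at 9 h minus the mean of the 8 cells at 0 h on that scale. A gene was counted as higher or lower where this difference was at least 0.5, a ratio of 3.16 in RPKM + 1, and at least 6 of the 8 cells of the higher group were above 0. Where a share of 8 cells is given, 8 of 8 has an exact (Clopper-Pearson) 95% interval of 63.1 to 100%, and 0 of 8 one of 0 to 36.9%; both cover counting error only.

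Mouse ES cells keep their identity through a core network around *Pou5f1* (Oct4), *Sox2* and *Nanog*, and LIF, a cytokine that acts through Stat3, holds them in the naive state of the early epiblast. When serum and LIF are withdrawn, cells leave the naive state, pass through a formative epiblast-like state in which *de novo* DNA methyltransferases and *Otx2* are raised, and become neural by default if BMP and Nodal signals are low. The first hours lie at the very start of that path.

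The 16 cells carried the markers of mESCs. *Zfp42* (Rex1), *Pou5f1* and *Utf1* were above 0.5 RPKM in 8 of 8 cells at both times, and the lowest value of any of them was 1.44, for *Zfp42* in 1 cell at 9 h. The number of genes above 0 split the cells in another way. It ran from 8519 to 10437 (median 8972) at 0 h and from 6541 to 9517 (median 6927) at 9 h, where cells 02 and 13 held 9517 and 8978 and the other 6 cells 6541 to 7265. The number of genes above 0.5 RPKM was 5055 to 5166 at 0 h and 5140 to 5204 at 9 h in these quantile-normalized values. Over all 11449 genes of the table the mean correlation of cell pairs was 0.602 within 0 h, 0.621 within 9 h and 0.565 between the times. It was 0.600 between the 0 h cells and cells 02 and 13, and 0.553 between the 0 h cells and the other 6. For this reason the counts below are also given with cells 02 and 13 left out where this moves them by over 1.5 times, an alternative chosen after the data had been seen. Of the 179 named genes that passed the size of 0.5, 12 no longer passed it without these 2 cells, and 66 no longer passed it when the single cell that mattered most to each, at either time, was left out.

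GC content moved with the comparison. With genes ranked by GC content and cut into 5 groups of equal size, the mean level of the group of highest GC minus that of the lowest was -0.0115 to 0.173 (median 0.149) in the 0 h cells and 0.200 to 0.396 (median 0.273) in the 9 h cells, so that the 2 times did not overlap. Cells 02 and 13 stood at 0.200 and 0.305. In the 38 h cells, collected later in the same culture series, the contrast ran from -0.00198 to 0.400. What part GC content or the number of genes above 0 has in any single gene's difference was not tested.

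**Figure D1:**
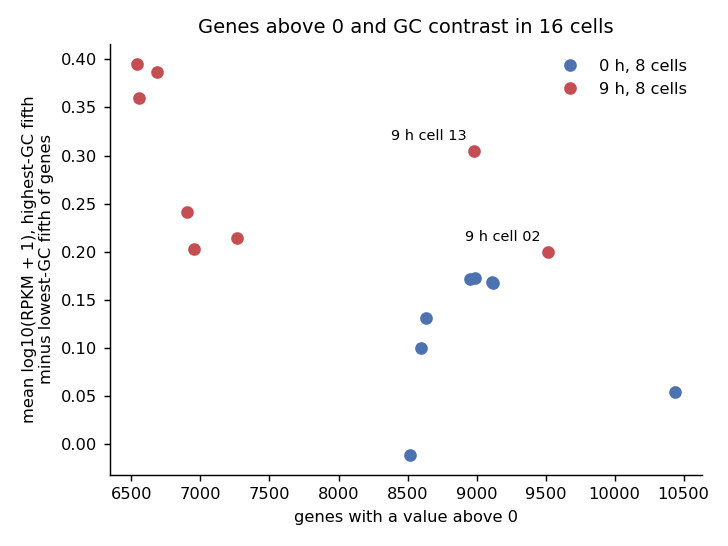
Number of genes with a value above 0 (horizontal axis) and the mean log10(RPKM + 1) of the highest of 5 GC groups of genes minus that of the lowest (vertical axis) in each of the 16 cells. The 9 h cells (red) lie between 0.200 and 0.396 on the vertical axis, all above the 0 h cells (blue), and 6 of them lie left of every 0 h cell.

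Of the 11449 genes, 727 (6.35%) were higher and 685 (5.98%) were lower at 9 h. Both sides are of like size, and the median difference of all genes was -0.00171. In 37 genes (0.323%) the 8 values at 9 h all lay above the 8 values at 0 h, and in 70 genes (0.611%) they all lay below; 23 of the former and 25 of the latter also passed the size of 0.5. Among the 1537 genes with a mean of at least 1 at both times, the median SD between cells was 0.570 at 0 h and 0.564 at 9 h, so a difference of 0.5 is less than 1 SD of single cells for a typical gene. Of these 1537 genes 5.92% were higher and 8.39% were lower. The shares of all genes, used for the lists below, include genes near 0 that cannot fall by 0.5. With the log10 of the mean RPKM + 1 in place of the mean of logs the counts were 1411 and 1435, and with a pseudocount of 0.1 they were 1734 and 1718. Without 9 h cells 02 and 13 they were 1023 and 861. Counts of list members under these alternatives are to be read beside these larger totals. Of the 28 gene lists with unequal numbers of higher and lower members, 14 were evened out or turned by at least 1 of 7 alternatives: naive and core pluripotency, BMP, FGF-ERK, immediate early, DNA methylation, heat shock, Trp53, actin, Polycomb, mesoderm and endoderm, retinoic acid, mitochondrial ribosome and proteasome.

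Of 19 naive factors measured 1 was higher (5.26%, against 6.35% of all genes) and 3 were lower (15.8%, against 5.98%), with 4 higher and 3 lower when cells 02 and 13 were left out. Of 17 core genes 2 were higher (11.8%) and 3 were lower (17.6%). *Zfp42*, a zinc finger protein and a classical mark of the naive state (chr8:44380422-44392363, mm9), was at 2.12 to 3.03 (median 2.76) at 0 h and at 1.44 to 2.64 (median 2.05) at 9 h, a difference of -0.66. *Pou5f1*, which encodes Oct4 (chr17:35642982-35647721), was at 2.33 to 2.96 (median 2.75) and at 1.55 to 2.65 (median 1.89), a difference of -0.65. In both genes the groups overlapped, with 2 of the 9 h cells, 04 and 08, above 2.5 for *Pou5f1* and cell 03 above 2.5 for *Zfp42*. The parallel populations, 1 library of bulk RNA at each time, gave 451 and 443 FPKM (the same kind of scaled density, counted in fragments) for *Pou5f1* and 373 and 308 FPKM for *Zfp42*. *Utf1*, a chromatin protein of pluripotent cells (chr7:147129688-147131011), had a difference of 0.29, with 2.98 to 3.54 at 0 h and 3.21 to 3.83 at 9 h.

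*Pou5f1* had a mean of 2.56 at 38 h and 2.73 at 60 h, whereas *Zfp42* stood at 1.82 and 1.39. *Klf4* and *Klf5*, Krüppel-like factors of the naive network, were both lower. *Klf4* (chr4:55540013-55545347) ran from 0.00926 to 2.32 (median 0.96) at 0 h, with 5 cells above 0.5 RPKM, and from 0 to 0.91 (median 0.13) at 9 h, with 1 cell above. *Klf5* was above 0.5 RPKM in 6 cells at 0 h and in 0 at 9 h, with a difference of -0.84. *Zfp57*, which guards imprinted methylation, was the naive factor that was higher with all 16 cells, with a median of 0.51 at 0 h and 1.91 at 9 h and a difference of 1.12; its populations read 95.1 and 140 FPKM. The higher core genes were *Dppa2* (0.65), which primes developmental promoters, and *Zscan10* (0.68), a partner of Oct4 and Sox2, and the third lower one beside *Pou5f1* and *Tdgf1* was *Sall1* (-0.62).

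**Figure D2:**
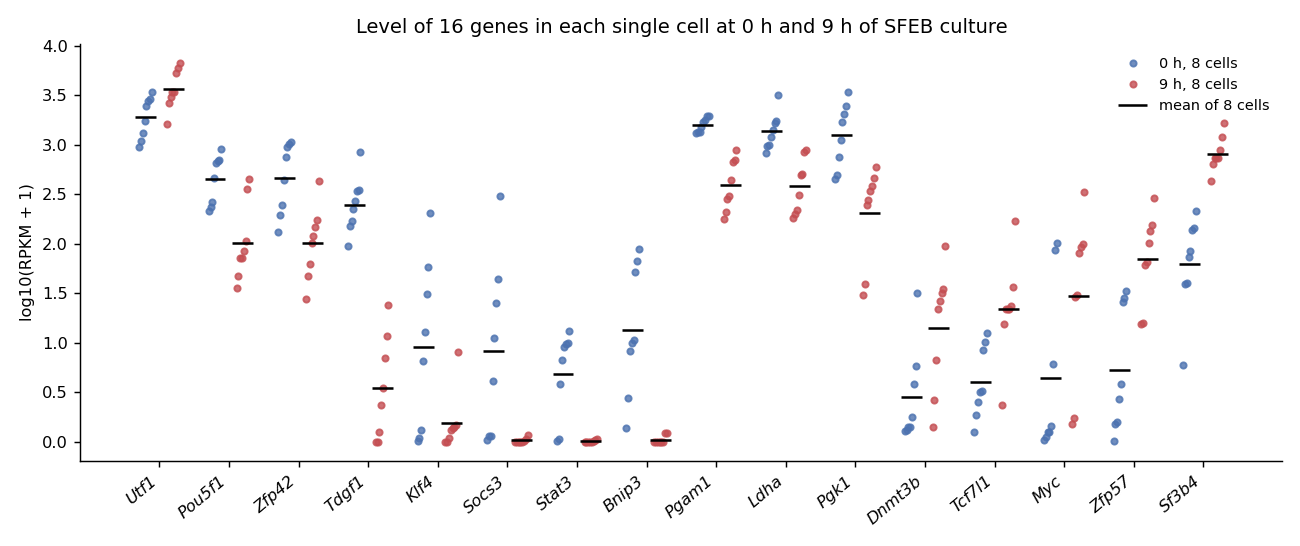
Level of 16 genes as log10(RPKM + 1) (vertical axis) in each of the 8 cells at 0 h (blue) and the 8 cells at 9 h (red), with black bars for the mean of 8 cells. The 9 h values of *Tdgf1*, *Bnip3* and *Pgam1* all lie below their 0 h values and those of *Sf3b4* all above, while *Pou5f1*, *Zfp42*, *Klf4*, *Socs3* and *Dnmt3b* overlap between the times.

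The single largest difference of all genes was in *Tdgf1* (Cripto, chr9:110842114-110848662), the membrane coreceptor through which Nodal signals. Its 8 values at 0 h ran from 1.98 to 2.93 (median 2.39). At 9 h they ran from 0 to 1.39 (median 0.46), with cells 04 and 09 at 0, and the difference was -1.85. The groups did not overlap. Cells 02 and 13, which held as many genes as the 0 h cells, read 0.55 and 0.37, and without them the difference was -1.83. In the populations *Tdgf1* read 392 and 149 FPKM. Its mean level in cells was 1.35 at 38 h, 1.79 at 84 h and 0.62 at 144 h, against 0.54 at 9 h, and 0.0565 at 216 h. Of the 13 genes of the Nodal pathway measured, 1 more was lower (15.4% with *Tdgf1*, against 5.98% of all genes) and 0 were higher: *Lefty2*, a secreted inhibitor and target of Nodal, had medians of 1.22 and 0.41 and a difference of -0.66. Without 0 h cell 04 the difference of *Lefty2* was -0.45, under the size. The list as a whole was not lower, as 8 of the 13 had a positive difference and the median was 0.0354.

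Genes of the LIF pathway held several of the lower members. Of 19 measured, 6 were lower (31.6%, against 5.98% of all genes) and 2 were higher (10.5%, against 6.35%). The median difference was -0.31, and 17 of the 19 were lower at 9 h in the parallel populations, where 49.4% of all genes were. *Stat3*, the transcription factor that carries the signal (chr11:100746412-100800854), ran from 0.0130 to 1.12 (median 0.89) at 0 h, above 0.5 RPKM in 6 cells. At 9 h no cell passed 0.5 RPKM. *Socs3*, the feedback inhibitor and a direct target of Stat3 (chr11:117827393-117831361), ran from 0.0197 to 2.49 (median 0.83) at 0 h, and at 9 h its highest value was 0.0677. That is 0 of 8 cells above 0.5 RPKM at 9 h against 5 of 8 at 0 h, with a difference of -0.90, and the population read 27.1 and 5.64 FPKM.

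The other lower members of the LIF list were *Klf4*, *Klf5*, the adhesion receptor gene *Icam1* (-0.97) and the secreted phosphoprotein gene *Spp1* (-0.72). *Spp1* was above 0.5 RPKM in every one of the 16 cells, and in the populations it differed little (750 and 729 FPKM). The 2 higher members were *Myc* and *Ifitm3*. *Myc*, a growth regulator, was above 0.5 RPKM in 3 cells at 0 h and in 8 at 9 h, with medians of 0.13 and 1.69, and the populations read 11.3 and 26.9 FPKM. *Ifitm3*, an interferon-induced membrane protein gene, differed by 0.91 in the cells but read 261 and 182 FPKM in the populations. With cells 02 and 13 left out 8 members were lower and 2 higher, and with the log10 of the mean 9 were lower and 2 higher.

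Of 22 formative epiblast genes measured, 1 was higher and 1 was lower (4.55% each, below the 6.35% and 5.98% of all genes); without cells 02 and 13 2 were higher, and with a pseudocount of 0.1 5 were. The higher one was *Dnmt3b*, a *de novo* DNA methyltransferase (chr2:153475186-153513466), which ran from 0.11 to 1.51 (median 0.20) at 0 h and from 0.15 to 1.98 (median 1.38) at 9 h. The groups overlapped, and 4 cells at 0 h and 7 at 9 h were above 0.5 RPKM. Its difference of 0.69 was followed by means of 2.15 at 38 h and 2.44 at 60 h, and the populations read 39.0 and 66.3 FPKM. The lower one was *Cd24a*, a small surface glycoprotein, at medians of 1.00 and 0, while the population was flat (19.1 and 19.3 FPKM). The maintenance methyltransferase *Dnmt1* (-0.53) and its partner *Uhrf1* (-0.64) were lower, which made 2 lower and 1 higher of 9 enzymes of DNA methylation. Without cells 02 and 13 the difference of *Dnmt1* was -0.37, which left 1 lower.

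*Tcf7l1* (Tcf3), the Wnt-pathway repressor that counters the naive network (chr6:72576372-72739248), was the 1 gene of 17 on the Wnt list that passed the size with all 16 cells (5.88%, near the 6.35% of all genes); 2 passed it without cells 02 and 13. It ran from 0.10 to 1.09 (median 0.51) at 0 h and from 0.37 to 2.23 (median 1.34) at 9 h, above 0.5 RPKM in 7 and 8 cells. The difference was 0.74, and the populations read 17.9 and 37.4 FPKM. Of 14 genes of the BMP pathway 2 were higher (14.3%) and 0 lower, although the log10 of the mean gave 3 and 3. *Bmp4*, the ligand, was at or near 0 in every 0 h cell and above 0.5 RPKM in 6 of 8 cells at 9 h, with a highest value of 2.25. *Gadd45g*, a stress and differentiation gene, was above 0.5 RPKM in 2 cells at 0 h and 7 at 9 h. The populations read 6.48 and 9.06 FPKM for *Bmp4*, and 8.65 and 12.4 FPKM for *Gadd45g*. Of 18 feedback genes of the FGF-ERK pathway the kinase gene *Mapk3* (-0.52) alone passed the size with all 16 cells (5.56%, near the 5.98% of all genes), and without cells 02 and 13 3 others were higher.

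Glycolysis and hypoxia genes held lower members and no higher one. Of 28 measured, 10 were lower (35.7%) and 0 were higher. Of all genes 5.98% were lower, and of the 1537 genes with a mean of at least 1 at both times 8.39%. A negative difference was found in 26 of the 28, against 5956 of all 11449 genes, and the median was -0.22. Averaged over the 28 genes, the 8 cells at 0 h stood at 1.34 to 1.74 and the 8 at 9 h at 1.08 to 1.32, so the groups did not overlap; the 38 h cells stood at 1.13 to 1.60. In the parallel populations 28 of 28 were lower at 9 h (median log10 difference -0.30), where 49.4% of all genes were lower. In a first population series 26 of 28 were lower at 8 h (median -0.15), against 43.2% of all genes. In an adherent monoculture 18 of 28 were lower at 8.5 h, against 47.1% of all genes, and the median was close to no change (-0.0111). The count of lower members was 10 or 11 under the 7 alternatives tried, subtraction of the median of each gene's GC bin included, and no member was higher in any of them.

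Among the enzymes, *Pgam1* (phosphoglycerate mutase, chr19:41986361-41993154) ran from 3.12 to 3.29 in the 0 h cells, a very narrow range, and from 2.25 to 2.95 at 9 h, with no overlap and a difference of -0.61. *Pgk1*, phosphoglycerate kinase, ran from 2.66 to 3.54 and from 1.49 to 2.78 (-0.79), and *Ldha*, the lactate dehydrogenase A subunit, from 2.92 to 3.51 and from 2.27 to 2.95 (-0.55). These are among the more abundant messages of the cell, above 0.5 RPKM in all 16 cells. The phosphofructokinase genes *Pfkp* (-0.83) and *Pfkm* (-0.67) and the glucose transporter gene *Slc2a3* (-0.77) were lower as well. In the populations *Pgk1* read 528 and 290 FPKM and *Ldha* 894 and 452 FPKM.

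Among hypoxia-inducible genes, *Bnip3*, a mitochondrial mitophagy receptor (chr7:146082519-146101202), showed the largest difference. It ran from 0.14 to 1.95 (median 1.02) at 0 h and from 0 to 0.0855 at 9 h, so that 7 of 8 cells were above 0.5 RPKM at 0 h and 0 of 8 at 9 h. The groups did not overlap and the difference was -1.11; the population read 61.3 and 8.31 FPKM. *Ankrd37* (-0.78), *Egln1*, an oxygen-sensing prolyl hydroxylase gene (-0.60), and *P4ha1*, a collagen prolyl hydroxylase gene (-0.59), were each above 0.5 RPKM in 3 to 6 cells at 0 h and in 0 or 1 at 9 h. The members with a positive difference were *Mif* (0.41) and *Ddit4* (0.0124).

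Because many genes of this list are known targets of hypoxia-inducible factors, whose binding element has the core ACGTG, promoters were searched for these 5 letters on both strands (ACGTG or CACGT) in the 250 bases before each RefSeq start (GRCm38.p6). Of the 28 genes 23 had a window in the table. Of the 10 lower genes 9 had one, and 8 of these held the core in at least 1 of their listed windows; of the other 18 genes 14 had one, and 5 held it. Over all 32851 windows 16.6% held it, a share per window, while a gene with several listed starts has several windows. A match describes these letters only. The windows of *Bnip3* (chr7:138909507-138909756, minus strand), *Pgk1* (chrX:106186850-106187099, plus strand), *Pgam1* (chr19:41911621-41911870, plus strand) and *Ldha* (chr7:46845554-46845803, plus strand, first of its 2 listed starts) are printed because these genes are lower and hold the core, and that of *Pfkp* (chr13:6648772-6649021, minus strand) because it is lower and does not; all are written 5′ to 3′ on the gene's strand with the core in capitals, and CACGTG holds it on both strands.
Bnip3: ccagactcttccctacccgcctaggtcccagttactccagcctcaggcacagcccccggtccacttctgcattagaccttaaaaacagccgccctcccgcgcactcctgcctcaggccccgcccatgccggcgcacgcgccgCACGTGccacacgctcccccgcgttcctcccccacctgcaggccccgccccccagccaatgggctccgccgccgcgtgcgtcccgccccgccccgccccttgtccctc
Pgk1: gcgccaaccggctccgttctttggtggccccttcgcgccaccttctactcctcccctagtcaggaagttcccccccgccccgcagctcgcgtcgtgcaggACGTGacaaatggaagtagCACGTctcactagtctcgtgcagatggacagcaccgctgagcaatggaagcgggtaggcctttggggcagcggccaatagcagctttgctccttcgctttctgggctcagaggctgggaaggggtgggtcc
Pgam1: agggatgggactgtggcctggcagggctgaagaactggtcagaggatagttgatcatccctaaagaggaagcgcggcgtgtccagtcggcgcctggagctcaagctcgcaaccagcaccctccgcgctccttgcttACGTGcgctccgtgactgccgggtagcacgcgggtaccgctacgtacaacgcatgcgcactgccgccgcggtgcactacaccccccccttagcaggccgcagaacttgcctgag
Ldha: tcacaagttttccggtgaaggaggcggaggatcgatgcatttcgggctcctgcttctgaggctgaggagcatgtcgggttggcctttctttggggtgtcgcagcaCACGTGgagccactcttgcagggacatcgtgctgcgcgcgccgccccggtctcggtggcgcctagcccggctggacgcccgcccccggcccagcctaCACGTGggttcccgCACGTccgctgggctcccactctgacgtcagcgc
Pfkp: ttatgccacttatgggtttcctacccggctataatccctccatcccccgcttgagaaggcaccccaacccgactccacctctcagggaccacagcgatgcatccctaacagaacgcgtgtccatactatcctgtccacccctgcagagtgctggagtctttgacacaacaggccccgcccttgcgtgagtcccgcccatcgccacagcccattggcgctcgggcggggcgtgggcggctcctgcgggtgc

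Of 38 adhesion and junction genes 7 were lower (18.4%, against 5.98% of all genes), 1, *F11r*, was higher (0.58) and 30 were neither. Without cells 02 and 13 2 were higher, with the log10 of the mean 4 were higher and 8 lower, and with a pseudocount of 0.1 4 were higher and 13 lower. The lower ones were the claudin genes *Cldn4* and *Cldn7*, the tight junction scaffold *Tjp3*, the catenin gene *Ctnna1*, the laminin chains *Lamb1* and *Lamc1*, and *Icam1*. *Cldn4* was above 0.5 RPKM in 7 cells at 0 h and 4 at 9 h, with medians of 1.61 and 0.19 and a difference of -0.93. *Tjp3* was above in 5 and 1 cells (-0.88), and the populations read 6.80 and 1.61 FPKM. Of 30 actin, SRF and YAP target genes 3 were lower (10.0%) and 2 higher (6.67%); with cells 02 and 13 left out 4 were lower and 6 higher. *Tagln*, a smooth muscle actin-binding protein, was above 0.5 RPKM in 4 cells at 0 h and 0 at 9 h while the population read 149 and 32.9 FPKM, and *Tpm4* (-0.74) and *Tagln2* (-0.65) were lower too. The higher ones were *Cnn2* (0.59) and *Actn1* (0.51).

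Lipid synthesis genes split. Of 32 genes of cholesterol and fatty acid synthesis 8 were lower (25.0%, against 5.98% of all genes) and 3 were higher (9.38%, against 6.35%). Lower were *Scd2*, a fatty acid desaturase (-0.99), *Pmvk* (-0.93), *Fads1*, *Sc4mol*, *Srebf2*, *Cyp51*, *Nsdhl* and *Elovl6* (-0.51 for the smallest); higher were *Mvd* (0.88), *Dhcr7* (0.58) and *Tm7sf2* (0.56). *Pmvk* and *Mvd* encode successive enzymes of the mevalonate pathway, with medians of 1.65 and 0.34 for the former and 1.23 and 2.41 for the latter. The lower members had a median GC content of 47.9% and the higher ones 56.5%, and after subtraction of GC bin medians 5 were lower and 3 higher. Of 31 targets of Atf4 and amino acid synthesis genes 4 were lower and 4 higher (12.9% each). The lower ones were *Psph* (-0.99), *Mthfd2* (-0.61), *Atf4* itself (-0.57) and *Asns* (-0.52), and the higher ones were the tRNA synthetase genes *Cars* (0.97), *Wars* (0.86) and *Aars* (0.52) and the stress regulator *Sesn2* (0.69). The *Atf4* difference was -0.20 without cells 02 and 13 and that of *Aars* 0.34 without 0 h cell 12. Of the lipid genes, *Nsdhl* stood at -0.30 without 0 h cell 06 and *Tm7sf2* at 0.36 without 9 h cell 08.

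Of 76 mitochondrial ribosomal protein genes 10 were higher (13.2%, against 6.35% of all genes) and 4 lower. Of 81 subunits of oxidative phosphorylation 9 were higher (11.1%) and 4 lower, with 57 positive differences, against 5357 of all 11449 genes. With cells 02 and 13 left out these counts were 11 and 7 and 12 and 5. With medians over cells 10 mitochondrial ribosomal genes were higher and 10 lower. *Mrps11* was the largest of these, with medians of 0.41 and 1.81 and a difference of 1.20. *Ndufa8*, a subunit of complex I, had medians of 1.12 and 2.02 (0.84). *Atp5sl*, which the list holds by its symbol although it encodes an assembly factor and not a subunit, differed by 0.87. *Uqcrc2* of complex III (-0.79) and *Ndufs3* of complex I (-0.70) were the largest on the lower side, beside *Mrps9* (-0.93) and *Mrpl39* (-0.69) of the mitochondrial ribosome. The other higher members of both lists differed by 0.50 (*Mrpl51*) to 0.68 (*Ndufv3*). Of 28 nucleolar genes 4 were higher (14.3%) and 2 lower (7.14%). The higher ones were *Rrs1* (0.97), *Nop2* (0.61), *Mybbp1a* (0.59) and *Nop10* (0.53), and the abundant nucleolar proteins *Gnl3* (-0.71) and *Npm1* (-0.63) were the lower ones.

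Of 62 translation factors 9 were lower (14.5%, against 5.98% of all genes) and 4 higher (6.45%, near the 6.35% of all genes). *Eif2b3* differed by -1.07 and *Eif4a2* by -0.91, and the X-linked and Y-linked copies of the gamma subunit of eIF2, *Eif2s3x* and *Eif2s3y*, differed by -0.81 and -0.78; these near-identical copies may share reads. *Eef1a1*, among the highest values of the table, is listed at 0 in 2 of 8 cells at 0 h, and its difference of 0.83 was 0.40 without one of them, cell 04; the medians were 4.02 and 3.91. Of 38 proteasome subunits 6 were lower (15.8%) and 1 was higher (2.63%), with cells 02 and 13 left out 6 were lower and 5 higher, and with the log10 of the mean 4 were lower and 5 higher. *Psma4* and *Psmc6* both differed by -1.01, and *Psma7*, *Psmd11*, *Psma3* and *Psmd12* by -0.84 to -0.51, whereas *Psmb3*, a subunit of the core particle, had its 8 values at 9 h (2.07 to 2.81) above all 8 at 0 h (1.33 to 2.03). The lower members of these lists had median GC contents of 42.1 and 46.4%, and the counts of lower members were still 9 and 6 after subtraction of GC bin medians. In the populations *Psma4* read 186 and 198 FPKM and *Eif2b3* 37.6 and 32.1 FPKM, so that *Psma4* was higher at 9 h in the population and lower in the cells. In the parallel populations 7 of the 38 proteasome subunits and 29 of the 62 translation factors were lower at 9 h, against 49.4% of all genes. In the first series the counts were 8 and 13, against 43.2% of all genes. Bulk RNA thus did not show these lists as mostly lower. Of 80 cytosolic ribosomal protein genes 3 were higher (3.75%), *Rpl34* (0.65) and *Rpl30* (0.57) among them, and 1 was lower, both below the shares of all genes, with 7 higher when cells 02 and 13 were left out. The lower one, *Rpl5*, held the narrow range of 3.28 to 3.51 at 0 h and stood at 2.05 to 3.04 at 9 h.

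Of 37 S-phase genes 6 were lower (16.2%, against 5.98% of all genes) and 1, *Ung*, was higher (2.70%, against 6.35%). The lower ones were the clamp loader subunits *Rfc4* (-0.96) and *Rfc2* (-0.81), the histone mRNA binding protein gene *Slbp* (-0.81), *Uhrf1*, the ribonucleotide reductase gene *Rrm2* (-0.58) and *Cdca7* (-0.56, and -0.40 without cells 02 and 13). Without these cells 2 S-phase genes were higher. Of 40 G2 and M-phase genes 3 were lower (7.5%), *Nek2* (-0.84), *Bub1* (-0.73) and *Ect2* (-0.52, and -0.32 without cells 02 and 13), and 2 were higher (5.00%), the phosphatases *Cdc25c* (0.66) and *Cdc25b* (0.59). *Cdc25b* was at or below 0.0164 in every 0 h cell and above 0.5 RPKM in 6 cells at 9 h, and its difference was 0.39 without 9 h cell 05. Of 24 regulators of G1 and S entry 3 were higher (12.5%), *Myc*, *Cdk6* (0.66) and *Cdc25a* (0.58), and 0 lower, and with cells 02 and 13 left out 7 were higher. Phases of single cells were not assigned.

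The shares of all genes to set beside the next lists are 6.35% higher and 5.98% lower. Of 24 heat shock and unfolded protein genes 1 (4.17%), *Hspb1*, was higher (1.06), and 2 (8.33%), *Hsp90b1* (-0.92) and *Hsp90aa1* (-0.55), were lower, near these shares. Of 20 targets of Trp53 3 were higher (15%) and 2 lower (10.0%; 5 higher without cells 02 and 13), led by *Phlda3*, an inhibitor of Akt, with medians of 0.55 and 2.34 (1.44), and *Perp* (0.87), and on the lower side *Gdf15* (-0.74) and *Ccng1* (-0.63). Of 17 immediate early genes 3 were higher (17.6%), *Myc*, *Fos* (0.54) and *Jun* (0.51), and 1 was lower (5.88%), *Egr1* (-0.51). Each of the last 3 was under the size without 1 cell. *Fos* stood at 0.30 without 9 h cell 08, *Jun* at 0.27 without 9 h cell 09 and *Egr1* at -0.27 without 0 h cell 02. Without cells 02 and 13 2 immediate early genes were lower. *Fos* and *Egr1* read 4.81 and 0.767 FPKM and 49.3 and 5.81 FPKM in the populations, so the *Fos* population read lower at 9 h while the cells were higher. Chromatin genes of the Polycomb list gave 3 lower, *Hmga1* (-0.86), *Ezh2* (-0.60) and *Cbx5* (-0.58), and 1 higher, *Cbx2* (0.65), of 31 (9.68% and 3.23%), with 5 lower when cells 02 and 13 were left out, 4 higher and 3 lower with the log10 of the mean, and 0 higher and 9 lower with medians over cells. Of 13 regulators of the Bcl2 family *Bad* was higher (0.57) and *Bok* lower (-0.76; 7.69% each), with 2 higher when cells 02 and 13 were left out, and of 14 genes of the retinoic acid pathway the receptor gene *Rxrb* was higher (7.14%; 0.61, and 0.44 without cells 02 and 13).

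**Figure D3:**
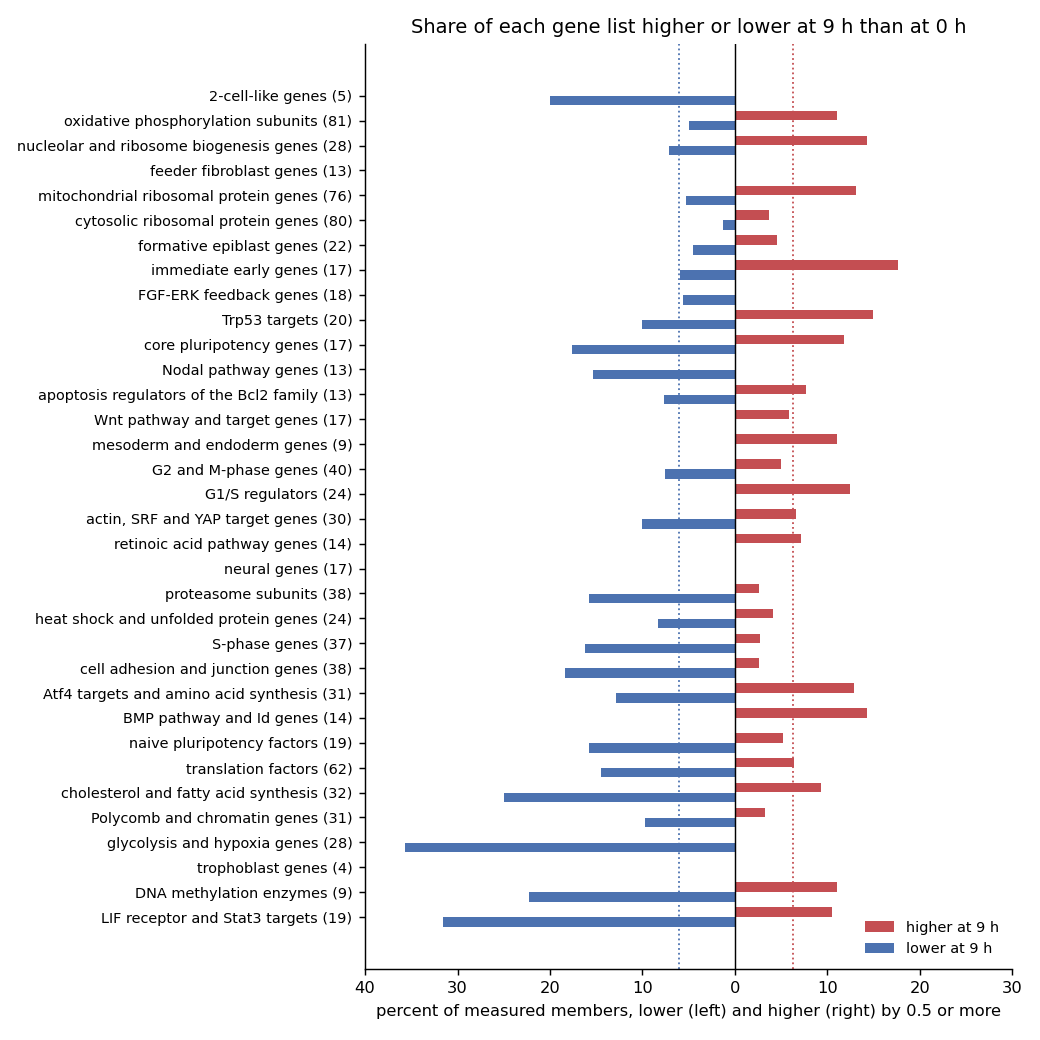
Percent of the measured members of each of 34 gene lists (number measured in brackets) that were lower (blue, to the left) or higher (red, to the right) by 0.5 or more at 9 h, ordered by the median difference of the list. Dotted lines mark the shares of all genes, 5.98% lower and 6.35% higher; glycolysis and hypoxia genes are at 35.7% lower and 0 higher and LIF pathway genes at 31.6% lower.

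Genes of other cell types were read from marker lists. Of 17 neural genes and 13 feeder fibroblast genes 0 were higher and 0 lower, and the same held for 4 trophoblast genes. With cells 02 and 13 left out 1 neural gene was lower and 1 fibroblast gene higher. With the log10 of the mean 5 fibroblast genes were higher and 2 trophoblast genes lower. The largest differences on these lists were -0.28 for *Tubb3*, a neuronal tubulin, 0.50 for *Fbln2* and 0.36 for both *Twist1* and *S100a4*, and -0.45 for *Ascl2*. *Fbln2* did not meet the rule for a gene counted as higher. The 4 trophoblast genes summed to 0.279 to 158 RPKM at 0 h and to 0 to 12.5 RPKM at 9 h. The 17 neural genes summed to 20.9 to 1449 RPKM (median 308) at 0 h and to 14.9 to 1962 RPKM (median 125) at 9 h, with the highest sum in cell 13. The 9 mesoderm and endoderm genes summed to 9.53 to 554 RPKM (median 151) and to 15.9 to 1298 RPKM (median 782). At each time only 1 of these 9 genes was above 0.5 RPKM in 4 or more cells. It was *Apoe*, with medians of 2.18 and 2.89 in log10(RPKM + 1), which makes up most of these sums. The median difference of the list was -0.00031. The part of such markers in other results was not tested. The 13 fibroblast genes summed to 1.52 to 126 RPKM (median 25.1) in the 0 h cells and to 2.42 to 524 RPKM (median 8.74) in the 9 h cells, with 0 of 13 at 0 in all 8 cells of a time point. The highest sum at 9 h was in cell 09 and that at 0 h in cell 12. In 1 of the 13 genes all 8 values at 9 h lay above all 8 at 0 h, against 0.323% of all genes. In the populations the same 13 genes summed to 1145 FPKM at 0 h and 487 FPKM at 9 h. Lower values in the populations of genes that fibroblasts also express, such as *Tagln*, can come with fewer such cells or with less RNA per cell, which bulk data cannot tell apart. Of 9 mesoderm and endoderm genes *Apoe*, which ES cells express too, was higher (0.65). Of 5 genes measured of the list for 2-cell-like cells, a rare state of ES cultures, 1 was lower and 0 higher. The lower one was *Zfp42*, a marker of ES cells that this list also holds. The 5 genes, *Zfp42* included, summed to 139 to 1094 RPKM (median 607) at 0 h and to 46.9 to 454 RPKM (median 147) at 9 h. *Tcstv1* and *Zscan4f* were at 0 in all 8 cells at 0 h and above 0 in 3 cells at 9 h, with differences of 0.21 and 0.20, under the size.

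The 12 largest positive differences ran from 1.24 to 1.59 and the 12 largest negative ones from -1.21 to -1.85. Among those on the higher side were *Josd2*, a deubiquitinase gene (medians 0.04 and 1.63), *Bud31*, a splicing factor gene (0.41 and 2.22), *Cdc42se1* (0.53 and 2.51), *Phlda3*, *Dom3z* (0.02 and 1.44), *Sssca1*, *Grwd1*, *Supt5h*, *Znhit2-ps*, *Wtip* and *Nudt22*. For *Josd2*, *Dom3z* and *Supt5h*, a transcription elongation factor gene, the 8 cells of each time did not overlap. On the lower side, after *Tdgf1*, came *Echdc2* (medians 2.22 and 0.19), *Nans*, a sialic acid synthase (2.03 and 0.27), *Laptm4b* (2.40 and 0.44), *Grtp1*, *Ptcd2*, *Dpagt1*, *Ddc*, *Rpusd4*, *Triml2*, *Ggnbp2* and *Uchl5*. *Nans* and *Rpusd4* did not overlap. The 12 higher genes had a median GC content of 58.8% and the 12 lower ones 49.6%, against 50.9% of all genes.

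Among the 10 largest differences with no overlap were also *Actr1a*, a dynactin subunit (0.08 to 0.71 and 0.79 to 2.33), *Ehd4*, an endocytic protein gene (at most 0.08 at 0 h and at least 0.55 at 9 h), and the splicing factor 3 subunits *Sf3a2* and *Sf3b4*. *Sf3b4* was at 0.78 to 2.33 at 0 h and at 2.64 to 3.23 at 9 h, and *Sf3a2* ran from 0.03 to 0.59 and from 0.90 to 2.11. In the parallel populations 9 of the 12 largest higher genes were higher, 8 of the 12 largest lower genes were lower and the other 4 higher. Of the 10 without overlap *Rpusd4*, lower in the cells, was the 1 gene that did not share the sign, at 14.6 and 14.7 FPKM. The populations read 66.8 and 112 FPKM for *Sf3b4* and 28.4 and 51.2 FPKM for *Sf3a2*. They differed little for *Actr1a* (36.3 and 37.7 FPKM), *Nans* (46.5 and 43.5 FPKM) and *Ehd4* (a difference of 0.0468 in log10(FPKM + 1)), and *Dpagt1*, lower in the cells, was higher in the populations by 0.11 on that scale.

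Across all genes the share that was higher at 9 h was larger in each group of higher GC content. In the 5 groups of the 11112 genes with a known GC content, from the lowest to the highest, 1.53, 3.56, 6.26, 8.91 and 12.1% were higher, while 6.88, 7.88, 7.11, 4.68 and 3.96% were lower. Over these genes the difference correlated with GC content at r = 0.188, a description across genes, which are not replicates. In the parallel populations the same correlation was -0.188, in the first series -0.108 and in the adherent culture -0.254, so the sign in the single cells was opposite to that in the bulk RNA. After the median difference of each of 20 GC bins was subtracted, 723 genes were higher and 649 lower.

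**Figure D4:**
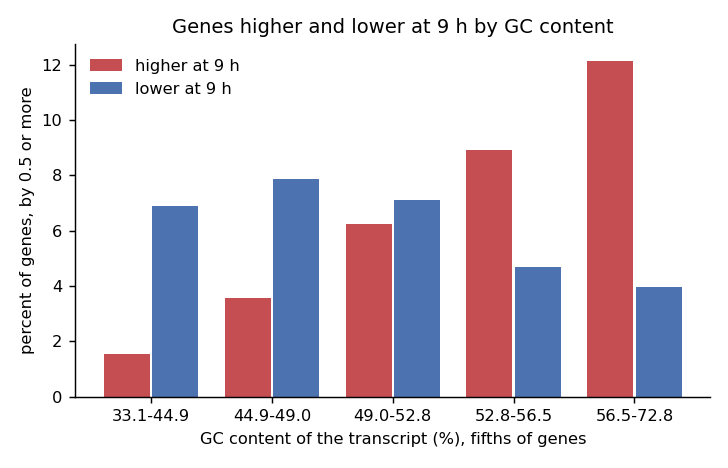
Percent of genes that were higher (red) or lower (blue) by 0.5 or more at 9 h in each of 5 equal groups of genes by GC content of the transcript (horizontal axis, range in percent). The share of higher genes is 1.53% in the first group and 12.1% in the last and that of lower genes is 6.88% in the first and 3.96% in the last.

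The populations are separate libraries that took no part in choosing the genes. Of the 727 genes higher in the cells, 498 (68.5%) were higher at 9 h in the parallel populations, where 50.3% of 11137 genes were higher. Of the 685 lower genes 425 (62.0%) were lower there, against 49.4% of all. In the first population series, sampled at 0 and 8 h, 75.7% of the higher genes were higher (background 56.7%) and 46.4% of the lower ones were lower (background 43.2%), and in the adherent monoculture, a different culture in N2B27 medium, the shares were 51.7% (52.9%) and 57.7% (47.1%). Across genes the differences in cells and parallel populations correlated at r = 0.193.

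The genes that differed in both SFEB population series were looked up in the cells. Of 127 genes at least 2-fold lower on FPKM + 1 in both series, 14 were lower in the cells and 4 were higher, and of 25 genes at least 2-fold higher 3 were higher and 0 lower, where all genes gave 5.98% lower and 6.35% higher. The 14 were *Tdgf1*, *Bnip3*, *Flot1*, *Socs3*, *Ddah2*, *Tjp3*, *Klf4*, *Tcfeb*, *Tagln*, *Fxyd6*, *Ly6g6e*, *P4ha1*, *Palm* and *Pck2*, and the 3 were *Esam*, *Enox1* and *Tcf7l1*. *Esam*, an endothelial-type adhesion molecule, was above 0.5 RPKM in 0 cells at 0 h and in 6 at 9 h, and in the populations it read 0.760 and 5.50 FPKM. *Enox1* was above in 1 and 6 cells and read 10.7 and 24.7 FPKM. The 4 genes that went the other way were *Tmem176b*, *Gm4535*, *Gsn* and *Efemp2*, of which *Gsn* read 63.4 and 24.5 FPKM in the populations and was above 0.5 RPKM in 2 cells at 0 h and 6 at 9 h. Genes of these sets that no list holds, such as *Flot1*, *Gsn* and *Esam*, were named after their values had been seen. The 127 genes also hold fibroblast genes such as *Col1a1* and *Col1a2*. The 13 fibroblast genes summed to 1145 and 487 FPKM in the parallel populations and to 1107 and 508 FPKM in the first series. The part of fibroblasts in this set was not tested.

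**Figure D5:**
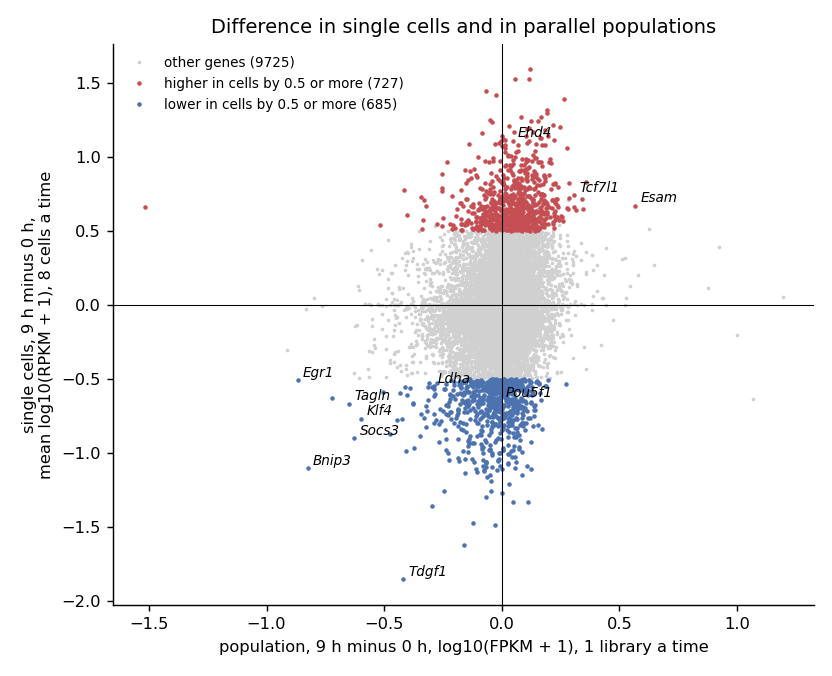
Difference between 9 h and 0 h in parallel populations (horizontal axis, log10(FPKM + 1), 1 library a time) and in single cells (vertical axis, mean log10(RPKM + 1), 8 cells a time) for 11137 genes. *Tdgf1*, *Bnip3*, *Socs3* and *Klf4* lie lower in both, *Tcf7l1* and *Esam* higher in both, and *Pou5f1* is lower in the cells at an almost unchanged population level.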

How the data were processed

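The members of the comparison, the gene lists and the rule for named genes were chosen with earlier results of these data known. Single-cell libraries were sequenced as single-end reads of 100 bp. The authors aligned reads to mm9; the submitters' processing notes name TopHat2 2.0.8b and Cufflinks 2.1.1, whereas the study's methods name other versions. The deposited single-cell values are log10(RPKM + 1) after quantile normalization, for genes above 0.5 RPKM in at least 8 of the 64 cells. The deposited values of the adherent culture are FPKM, and those of the 2 SFEB population series are FPKM that the authors had corrected for batch with ComBat, in which values below 0 were set to 0 here. Quantile normalization brings the distributions of the cells close to each other, so a shift of a whole cell may not be seen; the cells still differed in the number of genes above 0. The study states a minimum number of reads for every library; the files hold no counts, so the depth of each cell is not known from them and no interval on a level is given; intervals on shares of cells cover counting error only.

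Means, SDs, medians and shares were computed for each gene with Python 3.11.15, numpy 2.4.6, pandas 2.3.3 and scipy 1.17.1, and plotted with matplotlib 3.10.9. The code was tried on simulated cells in which changes larger than the size had been added to well expressed genes. That trial does not show how calls near the size behave. Named genes are the 3 marker genes, the 12 largest differences in each direction, the 10 largest without overlap, and list members past the size; a few of them are not reported here. Populations had 1 library per time and were compared on log10(FPKM + 1). Alternatives were the size, the pseudocount, the summary over cells, the filter, equal numbers of genes per cell, repeated quantile normalization, each cell left out, cells 02 and 13 left out, and GC correction.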

Additional observations from a re-analysis of the deposited data

Results flagged for a closer look

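The values of the genes named above, and the number of genes above 0, were examined for a cell that stands far from the other 7 cells of its time point. Of 316 groups of 8 cells, 51 held one whose gap to its nearest neighbour, divided by the whole range, passed Dixon's 95% critical value for 8 values. Chance flags about 1 group in 20, and values that are mostly at 0 with 1 cell above it are not normally distributed, so such flags are frequent in single cells. At 9 h the highest cell stood apart, with its log10(RPKM + 1), for *Ankrd37* (0.17, cell 13), *Ascl2* (1.13, cell 03), *Cd24a* (0.87, cell 13), *Cldn4* (1.50, cell 09), *Cldn7* (0.49, cell 13), *Cyp51* (1.00, cell 03), *Ddc* (0.24, cell 13), *Dpagt1* (0.39, cell 13), *Egln1* (0.52, cell 02), *Fads1* (0.47, cell 13), *Fos* (2.31, cell 08), *Gadd45g* (2.40, cell 08), *Gdf15* (2.00, cell 02), *Ggnbp2* (0.16, cell 13), *Icam1* (0.42, cell 03), *Jun* (2.24, cell 09), *Klf4* (0.91, cell 03), *Klf5* (0.12, cell 02), *Lamb1* (0.90, cell 02), *Lefty2* (2.11, cell 03), *Nek2* (1.10, cell 13), *Nsdhl* (0.83, cell 13), *P4ha1* (0.0574, cell 13), *Ptcd2* (1.24, cell 13), *Rfc4* (2.099, cell 02), *Rpusd4* (0.14, cell 03), *Sall1* (2.101, cell 04), *Sc4mol* (0.62, cell 13), *Tjp3* (1.07, cell 06), *Twist1* (1.80, cell 05), *Uchl5* (1.36, cell 05). At 9 h the lowest cell stood apart for *Apoe* (1.23, cell 09). At 0 h the highest cell stood apart for *Bmp4* (0.000602, cell 06), *Cdk6* (0.97, cell 12), *Dhcr7* (1.07, cell 05), *Dnmt3b* (1.51, cell 01), *Ehd4* (0.0755, cell 07), *Fos* (0.80, cell 02), *Gadd45g* (0.71, cell 02), *Ifitm3* (1.59, cell 03), *S100a4* (0.73, cell 03), *Tm7sf2* (0.40, cell 01), *Twist1* (0.0695, cell 01). At 0 h the lowest cell stood apart for *Asns* (0.80, cell 06), *Cdca7* (1.03, cell 02), *Lamc1* (0.0458, cell 06), *Mrpl39* (0.96, cell 06), *Psma4* (0.84, cell 06), *Psmd11* (0.57, cell 03), *Psph* (0.76, cell 02). The number of genes above 0 was 10437 in cell 06 at 0 h, against 8519 to 9120 in the other 7. No cause of these single values was tested.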

How the results depend on the processing

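No paired analysis was possible because the results come from no test and the cell numbers only name cells. The counts of 727 higher and 685 lower genes became 1746 and 1621 at a size of 0.3, 1411 and 1435 with the log10 of the mean RPKM + 1 in place of the mean of logs, and 1734 and 1718 with a pseudocount of 0.1. Leaving out each cell in turn gave 692 to 862 higher and 659 to 777 lower genes. The share of higher genes that were also higher in the parallel populations (68.5%) was 60.1% with the log10 of the mean, 62.5% with the pseudocount of 0.1, 63.0% without 9 h cells 02 and 13, and 64.8 to 70.9% leaving out single cells; in the first series it was 75.7% and in the adherent culture 51.7%. The share of lower genes that were also lower (62.0%) was 53.5% with medians over cells, 59.6 to 64.4% leaving out single cells, 46.4% in the first series and 57.7% in the adherent culture. The causes of these shifts were not tested. The difference of Eef1a1 reversed, from 0.83 to -0.0144 with the log10 of the mean and -0.11 with medians. Of 179 named genes counted as higher or lower, 142 kept their call with the log10 of the mean, 144 with medians, 167 without cells 02 and 13 and 173 after subtraction of GC bin medians. Without cells 02 and 13, and with GC bin medians subtracted, are alternatives chosen after seeing the data. The files hold no counts, and a value of 0 cannot be told apart from a message that was not captured.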
